A study of Mus musculus with 48 samples.

Results

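Chromatin accessibility was compared between iNKT17 and iNKT2 cells of the mouse thymus over every accessible region of the series' ATAC-seq count table that is at most 10000 bp wide. This left 54489 of 54524 regions, and 54485 of them had enough counts for a test. These iNKT cells, invariant natural killer T cells, carry a T cell receptor of little variety that recognises lipids on CD1d. The iNKT17 group was 2 ATAC libraries and the iNKT2 group was 2 ATAC libraries, all from freshly sorted thymic cells of FVB/N mice with no treatment. The 2 iNKT1 libraries of the same table entered the fit to share its estimate of the spread. Bulk RNA-seq counts of the same sublineages, 2 libraries each and from other tubes than the ATAC libraries, are set beside the ATAC values. The sort markers of the sublineages, the age and sex of the mice and any pooling of thymi are not given in the labels. No label says that the 2 libraries of a sublineage came from separate animals, so p-values measure the spread between libraries, which may be technical.

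The sublineages are known for the cytokine each makes. iNKT17 cells make IL-17, whereas iNKT2 cells have high levels of the transcription factor PLZF, encoded by Zbtb16, together with GATA3, and make IL-4 and IL-13. iNKT1 cells express T-bet, encoded by Tbx21, and make interferon gamma. ATAC-seq uses the transposase Tn5, which cuts and tags DNA where it is not wrapped in nucleosomes, so a region's count rises with how open it is. In bulk libraries, fewer cells with an open region and a less open region in each cell cannot be told apart.

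The promoters of 7 genes, picked from those whose start region was called, are printed as examples. Start regions were 5.25% of the higher and 5.58% of the lower regions placed in a class. Each line gives the 250 bases before the start, 5′ to 3′, from RefSeq (GRCm38.p6, the same assembly as mm10), and capitals mark the letters of any of the motifs searched, on either strand. The first 4 genes were more open in iNKT17 cells and the last 3 less open.
Il17a (chr1:20730655-20730904, plus strand): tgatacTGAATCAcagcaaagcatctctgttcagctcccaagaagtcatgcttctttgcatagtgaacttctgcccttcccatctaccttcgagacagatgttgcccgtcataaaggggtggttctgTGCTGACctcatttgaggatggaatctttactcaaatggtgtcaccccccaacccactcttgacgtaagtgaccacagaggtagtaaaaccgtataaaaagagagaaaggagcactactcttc
Il17f (chr1:20784271-20784520, minus strand): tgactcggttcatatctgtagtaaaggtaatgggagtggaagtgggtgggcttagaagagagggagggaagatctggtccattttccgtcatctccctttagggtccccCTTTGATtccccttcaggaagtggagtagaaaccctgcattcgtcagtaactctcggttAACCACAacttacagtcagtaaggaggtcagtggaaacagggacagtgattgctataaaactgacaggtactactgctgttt
Il23r (chr6:67491856-67492105, minus strand): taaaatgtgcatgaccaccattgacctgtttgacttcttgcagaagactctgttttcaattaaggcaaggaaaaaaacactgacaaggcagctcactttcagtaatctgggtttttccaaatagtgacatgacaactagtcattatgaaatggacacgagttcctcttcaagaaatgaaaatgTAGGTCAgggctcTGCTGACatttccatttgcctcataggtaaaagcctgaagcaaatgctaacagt
Il1r1 (chr1:40224830-40225079, plus strand): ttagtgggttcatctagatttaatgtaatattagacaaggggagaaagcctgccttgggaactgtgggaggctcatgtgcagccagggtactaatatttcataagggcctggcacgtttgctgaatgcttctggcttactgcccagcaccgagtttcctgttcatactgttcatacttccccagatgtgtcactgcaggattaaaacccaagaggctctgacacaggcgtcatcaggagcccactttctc
Tnfrsf4 (chr4:156013445-156013694, plus strand): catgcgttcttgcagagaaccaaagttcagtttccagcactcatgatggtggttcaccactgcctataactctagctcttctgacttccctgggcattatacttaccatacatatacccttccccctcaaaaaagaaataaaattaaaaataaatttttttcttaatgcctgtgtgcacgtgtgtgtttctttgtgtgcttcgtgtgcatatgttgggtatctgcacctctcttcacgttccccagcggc
Izumo1r (chr9:14903768-14904017, minus strand): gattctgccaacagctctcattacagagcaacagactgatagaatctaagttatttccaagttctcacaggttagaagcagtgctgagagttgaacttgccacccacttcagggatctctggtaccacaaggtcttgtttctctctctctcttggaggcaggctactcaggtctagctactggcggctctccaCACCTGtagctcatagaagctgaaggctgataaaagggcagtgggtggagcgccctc
Ifng (chr10:118440796-118441045, plus strand): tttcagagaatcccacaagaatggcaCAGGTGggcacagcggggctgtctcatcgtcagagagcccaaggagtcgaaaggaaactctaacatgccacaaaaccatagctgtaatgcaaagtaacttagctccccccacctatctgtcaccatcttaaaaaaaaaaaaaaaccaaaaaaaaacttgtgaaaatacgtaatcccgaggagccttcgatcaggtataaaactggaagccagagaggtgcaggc

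In the Il23r promoter, which drives the receptor for IL-23, the half-site TAGGTCA that nuclear receptors can bind lay at positions -67 to -61 from the start, and the MAF half-site TGCTGAC at -54 to -48. The Il17a promoter held a MAF half-site at -123 to -117. At -244 to -238 it held TGAATCA, a match to the searched AP-1 pattern TGANTCA, in which N is any base. The Il17f promoter held the TCF/LEF letters CTTTGAT at -141 to -135 and AACCACA, the RUNX letters TGTGGTT on the other strand, at -82 to -76. In the Izumo1r and Ifng promoters the E-box CAGGTG was found, in Izumo1r as CACCTG on the other strand. The Il1r1 and Tnfrsf4 windows held none of the 19 motifs.

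The iNKT17 libraries had 18371274 and 34813023 counts over regions, and the iNKT2 libraries had 17373112 and 13299586, so the second iNKT2 library was the shallowest. Spearman's rho over regions, a description across regions, was 0.939 between the iNKT17 libraries and 0.888 between the iNKT2 libraries, against 0.777 to 0.881 between the sublineages. The second iNKT2 library stood apart in narrow regions: in 996 tested regions it exceeded 4 times the highest of the other 5 libraries, and 879 of these were under 100 bp wide. The 1022 tested regions under 100 bp held 0.325% and 1.03% of the scaled counts of the iNKT17 libraries and 0.385% and 10.6% of those of the iNKT2 libraries. None of the 1022 was called in the edgeR fit described next, 21 had an unadjusted p under 0.05, and DESeq2 called 22. With a term for the replicate number added, edgeR called 212 of the 1022. A fit without the 1022 called 5750 regions, among them all the calls given here, and was added after the data were seen.

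In iNKT17 cells, 2730 regions were more accessible and 2068 less accessible than in iNKT2 cells by edgeR's quasi-likelihood test at a Benjamini-Hochberg adjusted p under 0.05. These are 5.01% and 3.80% of all regions tested, 8.81% in all. Levels are CPM, a library's counts in a region scaled to a common library size with TMM factors. The median log2 fold change, iNKT17 over iNKT2, was 2.04 among the regions that were higher and -1.60 among those that were lower, beside 0.00 over all regions. A change of at least 3 on the log2 scale, in size, was found in 513 of the higher and 110 of the lower regions. The groups did not overlap in any called region, and they did not overlap in 48.9% of all regions tested, called or not. Without the second iNKT2 library the fit called 1166 regions higher and 521 lower, and without the second iNKT17 library it called 995 higher and 696 lower. No called region changed sign in any alternative.

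**Figure D1:**
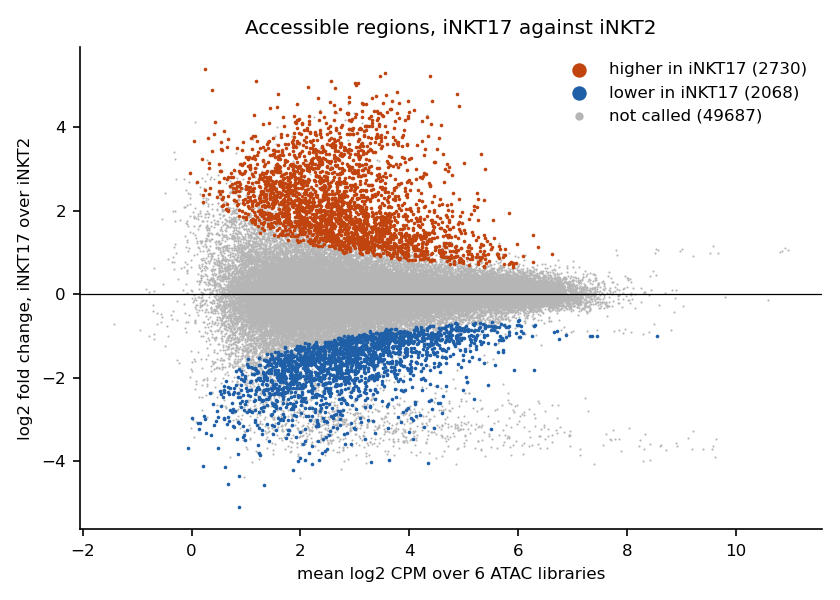
Each point is 1 of the 54485 regions tested, with its mean log2 CPM over the 6 ATAC libraries on the x axis and its log2 fold change, iNKT17 over iNKT2, on the y axis. The 2730 regions higher in iNKT17 (orange) reach larger changes than the 2068 lower (blue), and the grey band of not called points near -3 holds the regions read mostly in the second iNKT2 library.

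Called regions lay away from gene starts. Within 1 kb of a listed start, 1.15% of 11718 regions were higher in iNKT17 cells and 0.947% lower, against 6.35% and 5.47% of 21123 regions in gene bodies and 6.26% and 4.13% of 17521 regions between genes. Start regions made up 23.3% of the regions placed in a class and 5.25% of the higher and 5.58% of the lower ones. Called regions of a kind also lay near each other. Another higher region was found within 20 kb of 35.0% of the higher regions and of 8.90% of the regions not called, whereas 2.64% of the higher regions had a lower one that near. Likewise 27.9% of the lower regions had another lower region within 20 kb, beside 8.67% of the regions not called. On the X chromosome, 2.46% of 1139 regions were higher and 0.527% lower.

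The genes of the IL-17 cytokines were more open along most of their neighbourhood in iNKT17 cells. Il17a and Il17f encode IL-17A and IL-17F, and 6 of the 7 regions given to Il17a and all 3 given to Il17f were higher. The region over the Il17a start (chr1:20730571-20731369) had 32.0 and 45.9 CPM in the iNKT17 libraries, against 2.49 and 1.61 in the iNKT2 libraries. Both iNKT17 libraries stood above both iNKT2 libraries, and the log2 fold change was 4.23 ± 0.33 (SE, n = 2 libraries each, edgeR adjusted p = 0.000983). The start region of Il17f (chr1:20784049-20784809) had 19.2 and 36.3 CPM in iNKT17, against 1.08 and 1.04 in iNKT2 (log2 fold change 4.70 ± 0.51, edgeR adjusted p = 0.0017). The iNKT1 libraries were below 1 CPM in both regions. With 1 library left out at a time, 4 to 5 regions of Il17a and 2 to 3 of Il17f were called.

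Receptors for the cytokines that drive the IL-17 program were open as well. Of the regions at Il1r1, which encodes the IL-1 receptor, 10 of 12 were higher. The strongest lay upstream of the start (chr1:40210582-40211516), with 38.8 and 40.8 CPM in iNKT17, against 3.31 and 2.25 in iNKT2 (log2 fold change 3.83 ± 0.33, edgeR adjusted p = 0.001). Il1r1 had 8 to 10 calls when any 1 of the 4 libraries was left out. At Il23r, 4 of 6 regions were higher, and the one with the smallest p, inside the gene body (chr6:67475449-67476250), had 17.6 and 30.6 CPM in iNKT17, against 1.68 and 1.21 in iNKT2 (log2 fold change 4.04 ± 0.36, edgeR adjusted p = 0.00104). At Ccr6, a receptor for the chemokine CCL20, 2 of 6 regions were higher. The first of these lay 29254 bp from the start (chr17:8206525-8207053) and had 17 and 17.7 CPM in iNKT17, against 3.52 and 1.69 in iNKT2 (log2 fold change 2.71 ± 0.36, edgeR adjusted p = 0.00325). The groups were apart in each of these 3 regions, and each kept its call when any 1 of the 4 libraries was left out, although Ccr6 as a whole had 1 call without the second iNKT17 library or either iNKT2 library.

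The regulators of the type 17 program were more mixed. Blk is listed with the type 17 transcription factors although it encodes a tyrosine kinase of the Src family. It had 8 higher regions of 11, led by a region of the gene body (chr14:63377026-63377742) with 35.0 and 42.4 CPM in iNKT17, against 8.67 and 9.97 in iNKT2 (log2 fold change 2.06 ± 0.23, edgeR adjusted p = 0.00169). Without the second iNKT2 library, and likewise without the second iNKT17 library, 3 Blk regions were called. Maf and Sox13, factors needed for IL-17-producing innate-like T cells, had 0 calls among 8 and 12 regions by edgeR and by DESeq2, each without a replicate block. At an unadjusted p under 0.05, edgeR gave 2 Maf regions and 0 Sox13 regions. With a replicate block, edgeR called 2 Maf regions, both higher, and 0 Sox13 regions.

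Rora, which encodes RORα, a nuclear receptor, went both ways along a single gene. A region 438700 bp into the gene body (chr9:69092205-69092768) had 1.21 and 0.582 CPM in iNKT17, against 6.88 and 7.23 in iNKT2 (log2 fold change -3.02 ± 0.44, edgeR adjusted p = 0.00461). Another region some way on (chr9:69305839-69306135) had 7.45 and 7.29 CPM in iNKT17, against 2.00 and 2.25 in iNKT2 (log2 fold change 1.79 ± 0.33, edgeR adjusted p = 0.0107). In all, 3 of its 27 regions were higher and 3 lower, beside 5.01% higher and 3.80% lower over all regions. Without 1 library, 0 to 2 were higher and 1 to 2 lower, the lowest count of higher regions being without the second iNKT17 library. Rora RNA was 105 and 123 CPM in iNKT17, against 149 and 113 in iNKT2, with overlapping groups and no call.

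**Figure D2:**
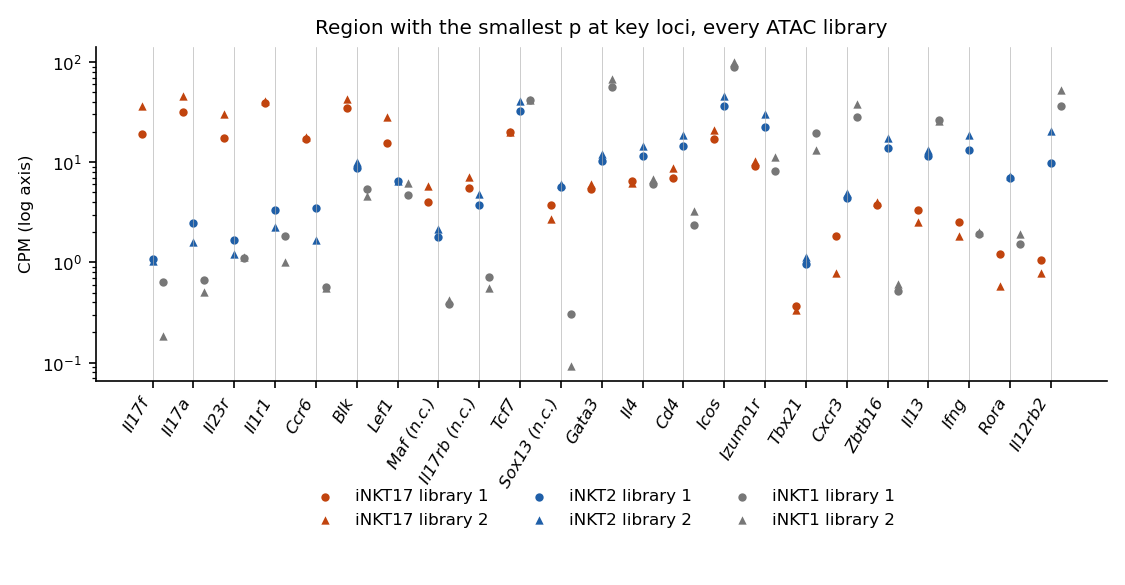
The CPM of the region with the smallest p at each of the key loci shown is plotted on a log axis for every ATAC library, with iNKT17 in orange, iNKT2 in blue and iNKT1 in grey, circles for library 1, triangles for library 2, and n.c. for regions not called. From Il17f, with 19.2 and 36.3 CPM in iNKT17 and about 1 CPM in iNKT2, the order runs to Il12rb2, where iNKT17 had 1.05 and 0.776 CPM and iNKT2 9.81 and 20.3.

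Neighbouring genes with different cytokine programs opened in opposite directions. Il23r and Il12rb2, which encodes a chain of the IL-12 receptor, start 116 kb apart on chromosome 6. All 4 called regions at Il23r were higher and all 3 called at Il12rb2 were lower in iNKT17. The Il12rb2 region with the smallest p (chr6:67347951-67348426, gene body) had 1.05 and 0.776 CPM in iNKT17, against 9.81 and 20.3 in iNKT2, and the iNKT1 libraries had 36.0 and 52.8. Its log2 fold change was -4.05 ± 0.41 (edgeR adjusted p = 0.00127), and the iNKT2 libraries lay between those of iNKT17 and iNKT1. Without the second iNKT17 or the second iNKT2 library, 1 Il12rb2 region was called.

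Il22 and Ifng encode IL-22 and interferon gamma and start 236 kb apart on chromosome 10. A region of the Il22 body (chr10:118206317-118207189) had 39.7 and 65.7 CPM in iNKT17, against 4.98 and 4.42 in iNKT2 (log2 fold change 3.48 ± 0.33, edgeR adjusted p = 0.00112). Iltifb next to it is a near-identical copy of Il22, so reads could be split between the copies and both values are uncertain. At Ifng, 5 of 18 regions were lower and none higher, and 5 were called whichever of the 4 libraries was left out. The region over the Ifng start (chr10:118440595-118441249) had 1.42 and 0.997 CPM in iNKT17, against 10.2 and 5.87 in iNKT2 and 54.5 and 54.3 in iNKT1 (log2 fold change for iNKT17 over iNKT2 -2.76 ± 0.32, edgeR adjusted p = 0.00188). The Ifng region with the smallest p lay 19405 bp from the start (chr10:118460021-118460881), with 2.52 and 1.83 CPM in iNKT17, against 13.1 and 18.7 in iNKT2 (log2 fold change -2.88 ± 0.33, edgeR adjusted p = 0.00173). The levels in the iNKT1 libraries there were 1.90 and 2.00 CPM, so the iNKT2 libraries were the highest of the 6.

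The type 2 cytokine cluster on chromosome 11 divided in the same manner. Around Il4 and Il13, 7 regions were lower, including those given to the neighbours Kif3a and Rad50. The strongest, 3514 bp from the Il13 start (chr11:53630934-53631443), had 3.36 and 2.55 CPM in iNKT17, against 11.6 and 13.3 in iNKT2 and 26.5 and 25.8 in iNKT1 (log2 fold change for iNKT17 over iNKT2 -2.08 ± 0.25, edgeR adjusted p = 0.00208). At the Il5 end of the cluster, 103 kb from the Il4 start, the direction was opposite. The region 1050 bp from the Il5 start (chr11:53719439-53720049) had 21.1 and 21.6 CPM in iNKT17, against 4.77 and 2.73 in iNKT2 (log2 fold change 2.50 ± 0.31, edgeR adjusted p = 0.00243). A second higher region lay in Rad50, 74.7 kb from the Il4 start, with 10.8 and 11.4 CPM in iNKT17, against 1.35 and 0.321 in iNKT2. Il5 RNA had 0 counts in every library of both sublineages.

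**Figure D3:**
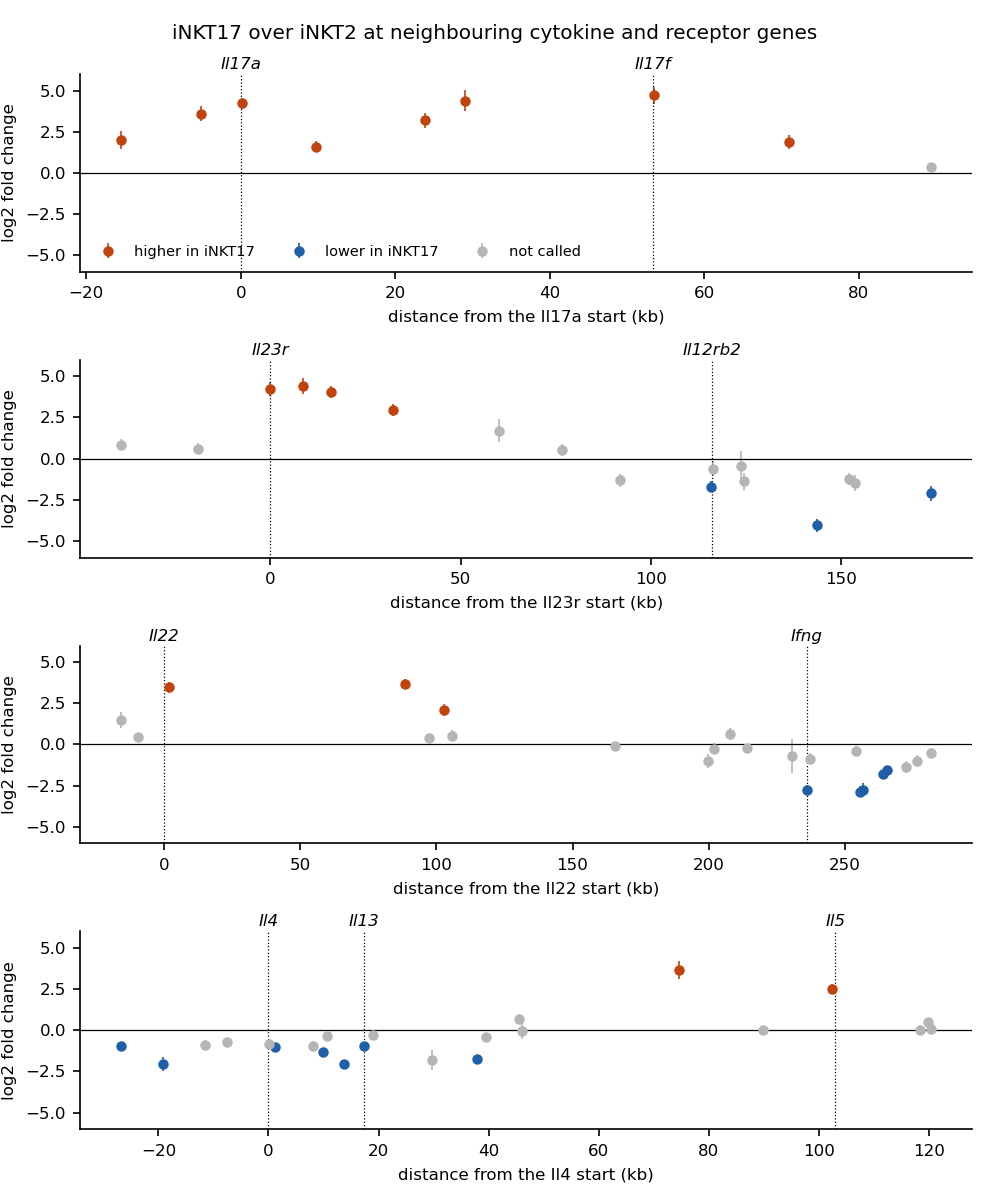
For 4 stretches of neighbouring genes, each point is a region placed by its distance in kb from the first gene's start, with its log2 fold change, iNKT17 over iNKT2, and SE bars. Il17a and Il17f have 8 regions higher and none lower, whereas the higher and lower regions of the other 3 stretches sit at different ends, 4 and 3 at Il23r and Il12rb2, 3 and 5 from Il22 to Ifng, and 2 and 7 from Il4 to Il5.

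At the genes by which iNKT2 cells are known, the changes were smaller in size, and several calls were lost when 1 library was left out. The counts of lower regions below stand beside 3.80% lower over all regions tested. Over all regions of a gene, the median log2 fold change was 0.07 at Gata3 and 0.09 at Icos, against -0.87 at Il4 and -0.82 at Izumo1r. Gata3, the type 2 master regulator, had 1 lower region of 15 (chr2:9801319-9802071), with 5.46 and 6.09 CPM in iNKT17, against 10.3 and 12.0 in iNKT2 (log2 fold change -0.95 ± 0.21, edgeR adjusted p = 0.0221). At Il4 itself, 1 of 5 regions was lower (chr11:53618162-53618725), at 6.51 and 6.21 CPM in iNKT17, against 11.5 and 14.5 in iNKT2 (log2 fold change -1.04 ± 0.25, edgeR adjusted p = 0.0356). Both calls were lost without the second iNKT2 library, without the first iNKT17 library and without the second iNKT17 library. The only region given to Cd4, the co-receptor (chr6:124884862-124885514), had 6.98 and 8.75 CPM in iNKT17, against 14.4 and 18.7 in iNKT2 (log2 fold change -1.07 ± 0.28, edgeR adjusted p = 0.0458), and lost its call whichever of the 4 libraries was left out. Izumo1r, which encodes folate receptor 4, had 2 lower regions of 7, and the region over its start had 9.23 and 10.2 CPM in iNKT17, against 22.6 and 30.2 in iNKT2 (log2 fold change -1.44 ± 0.26, edgeR adjusted p = 0.00985). Icos, a costimulatory receptor, had 1 lower region of 20, and the calls at Icos and Izumo1r were lost without the second iNKT2 library. Il17rb, the IL-25 receptor chain, had 1 region, at 5.56 and 7.09 CPM in iNKT17, against 3.74 and 4.82 in iNKT2, and it was not called. The iNKT1 libraries were above both iNKT2 libraries at the Gata3 region (56.3 and 67.3 CPM) and the lower Icos region (89.9 and 99.7 CPM). They were below both at the Il4 region (6.04 and 6.79 CPM), the Cd4 region (2.37 and 3.26 CPM) and the Izumo1r start (8.23 and 11.3 CPM).

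Zbtb16 had 38 regions, of which 5 were lower and 2 higher in iNKT17, beside 3.80% lower and 5.01% higher over all regions. The strongest lay in the gene body (chr9:48681090-48681475) and had 3.73 and 4.02 CPM in iNKT17, against 13.9 and 17.4 in iNKT2 (log2 fold change -2.01 ± 0.28, edgeR adjusted p = 0.00394). The iNKT1 libraries had 0.514 and 0.605 CPM, below those of iNKT17. This call was kept whichever of the 4 libraries was left out. Over the gene, 1 to 3 regions were then lower, and 0 were higher without the second library of iNKT17 or either library of iNKT2. Zbtb16 RNA was 544 and 589 CPM in iNKT17, against 740 and 522 in iNKT2, with overlapping groups.

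Genes of the type 1 program were also less open in iNKT17 than in iNKT2 cells at many regions, with 26 of 172 lower (15.1%) and 12 higher (6.98%). Over all regions, 3.80% were lower and 5.01% higher. Without the second iNKT2 library 12 were lower and 5 higher, and without the second iNKT17 library 12 were lower and 8 higher. The Tbx21 region with the largest change (chr11:97112500-97113136) had 3.62 and 1.02 CPM in iNKT17, against 20.3 and 21.8 in iNKT2 and 122 and 102 in iNKT1 (log2 fold change -3.23 ± 0.60, edgeR adjusted p = 0.0412). It lost its call without either iNKT2 library. Cxcr3, a chemokine receptor of type 1 cells, had 1 lower region of 2 (chrX:101737202-101737722), at 1.84 and 0.776 CPM in iNKT17, against 4.44 and 4.98 in iNKT2, a call lost without the second library of either sublineage. A region near Ccl5, a chemokine of cytotoxic cells, had 0.997 and 0.416 CPM in iNKT17, against 4.39 and 6.11 in iNKT2 (log2 fold change -2.96 ± 0.39, edgeR adjusted p = 0.00306). The iNKT1 libraries had 44.8 and 40.3 CPM at that Ccl5 region, so iNKT2 was again between iNKT17 and iNKT1. Among the type 1 genes, Bhlhe40, a transcription factor, stood on the other side with 5 higher regions of 13 and none lower, but it had 2 higher without the second iNKT17 library or either iNKT2 library.

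The cytokines and effectors of type 17 cells had 27 of 64 regions higher (42.2%) and none lower, beside 5.01% and 3.80% over all regions. Their median log2 fold change was 1.15, beside 0.00 over all regions. Besides the IL-17 genes, the higher regions were at Sdc1 (6 of 11), which encodes syndecan-1, at Pxdc1 (4 of 5) and at Serpinb1a (3 of 6), a protease inhibitor, among others. With any 1 of the 4 libraries left out, Pxdc1 had 4 calls, Sdc1 3 to 4 and Serpinb1a 1 to 2, both lowest without the second iNKT17 library or either iNKT2 library. The strongest Pxdc1 region (chr13:34659267-34660306) had 24.2 and 37.0 CPM in iNKT17, against 2.60 and 1.69 in iNKT2 (log2 fold change 3.82 ± 0.34, edgeR adjusted p = 0.00104). Type 17 receptors had 23 of 78 regions higher (29.5%) and 1 lower (1.28%), with a median of 0.55. Type 17 transcription factors had 18 of 145 higher (12.4%) and 7 lower (4.83%), with a median of 0.22. Of the 18, 8 were at the kinase gene Blk. With 1 library left out, 17 to 20 regions of the cytokine list, 16 to 23 of the receptor list and 6 to 16 of the factor list were higher, the factor list being lowest without the second iNKT17 library (6) or the second iNKT2 library (7). Ltb4r1, a receptor for leukotriene B4, had its only region higher, at 30.3 and 32.7 CPM in iNKT17, against 9.59 and 9.08 in iNKT2.

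The iNKT2 surface and signalling genes had 8 of 69 regions lower and none higher, with a median of -0.26, and the 8 became 0 without the second iNKT2 library. The 8 were 11.6% of that list's regions, beside 3.80% lower and 5.01% higher over all regions. The type 2 program had 11 of 88 regions lower (12.5%) and 9 higher (10.2%). Its higher regions were at Nfil3 (4 of 10), a basic leucine zipper factor, at Il1rl1 (4 of 8), the IL-33 receptor, and at Il5. The Il1rl1 region with the smallest p (chr1:40397275-40397812) had 7.66 and 13.2 CPM in iNKT17, against 1.30 and 1.04 in iNKT2 (log2 fold change 3.14 ± 0.41, edgeR adjusted p = 0.00299). Il1rl1 lies near Il1r1, and its RNA had at most 1 count in a library. Nfil3 and Il1rl1 also had 1 lower region each, and without the second iNKT17 or second iNKT2 library Nfil3 had 1 higher region and Il1rl1 2. Without the second iNKT17 library the type 2 list had 3 regions lower and 4 higher, and the same counts without the second iNKT2 library.

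**Figure D4:**
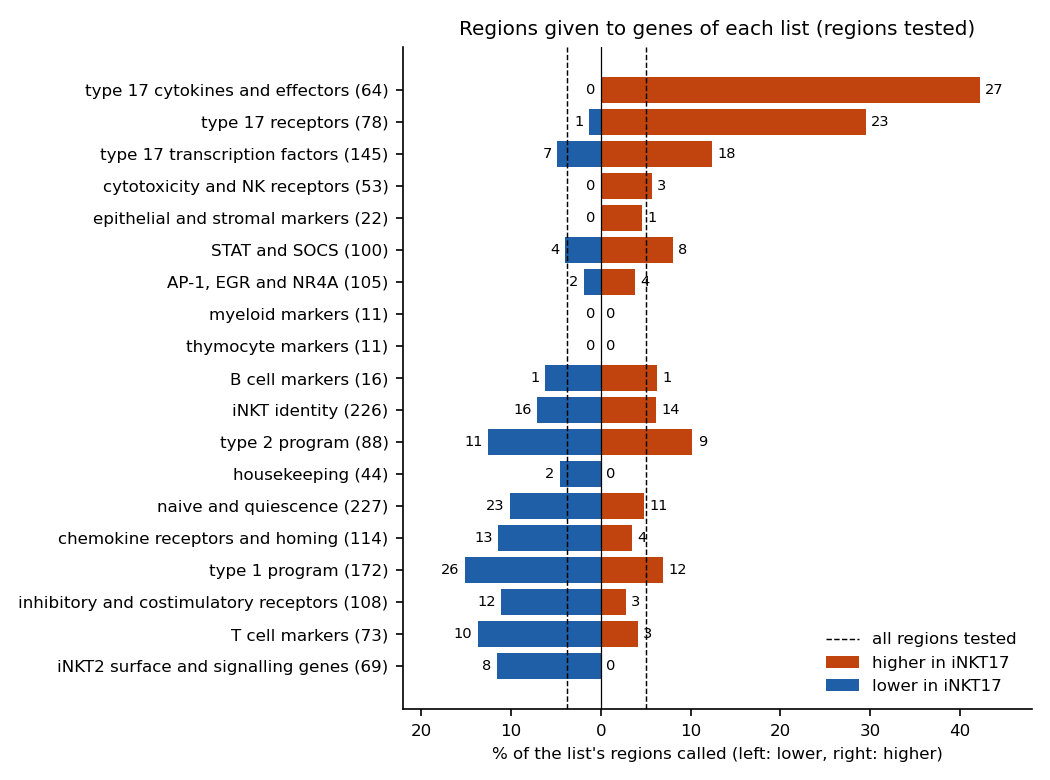
Bars give the percentage of each list's regions that were called, higher in iNKT17 to the right and lower to the left, with the number called beside each bar and the regions tested in brackets, and dashed lines mark 5.01% and 3.80% over all regions. Type 17 cytokines and effectors reach 42.2% higher, and iNKT2 surface genes have 0 higher and 8 lower.

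The iNKT identity list had 14 of 226 regions higher (6.19%) and 16 lower (7.08%), beside 5.01% and 3.80% over all regions, and its counts became 3 and 2 without the second iNKT2 library and 2 and 3 without the second iNKT17 library. Within it, Tox2, a DNA-binding HMG-box factor, had 2 of 11 regions higher and 1 lower. Its strongest region (chr2:163166061-163167011) had 33.9 and 40.1 CPM in iNKT17, against 5.36 and 8.12 in iNKT2 (log2 fold change 2.46 ± 0.30, edgeR adjusted p = 0.00221). Runx1, a Runt factor that is on both the identity and the type 17 list, had 4 of 34 regions higher and 2 lower, and 1 and 0 without the second library of either sublineage. The naive and quiescence list had 23 of 227 regions lower (10.1%) and 11 higher (4.85%), among them 8 lower of 29 at Foxp1, 4 lower of 15 at Ccr7, a lymph node homing receptor, and 4 higher of 10 at Il7r, the IL-7 receptor. Tcf7 had 2 lower of 14 and Lef1 1 higher of 20, and both genes lost every call without the second iNKT2 or the second iNKT17 library. Without the second iNKT2 library the naive list had 5 lower and 1 higher, and without the second iNKT17 library 6 lower and 1 higher. Foxp1 and Ccr7 then had 1 lower region each and Il7r 1 higher, in both of these fits.

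Inhibitory and costimulatory receptors had 12 of 108 regions lower and 3 higher, with 4 lower without the second iNKT2 library and 6 without the first iNKT17 library. The 12 and 3 were 11.1% and 2.78% of the list's regions, beside 3.80% lower and 5.01% higher over all regions. Tnfrsf4, which encodes OX40, had its only region, over the start (chr4:156013360-156014095), at 3.83 and 1.47 CPM in iNKT17, against 22.1 and 21.5 in iNKT2 and 1.59 and 1.68 in iNKT1 (log2 fold change for iNKT17 over iNKT2 -3.07 ± 0.41, edgeR adjusted p = 0.00338). The call was kept whichever of the 4 libraries was left out. Its neighbour Tnfrsf18, which encodes GITR, had 2 lower regions of 4, the stronger at 5.56 and 7.53 CPM in iNKT17, against 30.7 and 34.2 in iNKT2. Without the second iNKT2 library or either iNKT17 library, 1 Tnfrsf18 region was lower. At Cd5, a receptor that dampens T cell receptor signals, 4 of 8 regions were lower, and 1 without the second library of either sublineage. Ctla4, an inhibitory receptor, had 1 lower and 1 higher region of 9. The lower one, 11447 bp from the start, had 1.99 and 2.44 CPM in iNKT17, against 11.7 and 11.8 in iNKT2 and 12.4 and 19.7 in iNKT1 (log2 fold change for iNKT17 over iNKT2 -2.40 ± 0.30, edgeR adjusted p = 0.00263).

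Of the chemokine receptor and homing genes, 13 of 114 regions were lower and 4 higher, with 3 lower and 1 higher without the second iNKT2 library and 4 and 1 without the second iNKT17 library. The 13 and 4 were 11.4% and 3.51% of the list's regions, beside 3.80% lower and 5.01% higher over all regions. The lower ones of the list included Ccr2, with 3.88 and 4.54 CPM in iNKT17 at its strongest region, against 17.4 and 25.3 in iNKT2, and Cxcr4, with 1.52 and 1.39 in iNKT17, against 7.31 and 8.20 in iNKT2. The STAT and SOCS list had 8 of 100 regions higher and 4 lower, and 1 to 2 higher without either iNKT2 library. The 8 and 4 were 8.0% and 4.0% of this list's regions, beside 5.01% higher and 3.80% lower over all regions. The strongest region of the list lay over the start of Socs3, a feedback inhibitor of STAT3 signalling (chr11:117968865-117969609), with 87.3 and 64.2 CPM in iNKT17, against 21.1 and 17.8 in iNKT2 (log2 fold change 1.96 ± 0.22, edgeR adjusted p = 0.00173). Its iNKT1 levels, 85.5 and 66.8 CPM, overlapped those of iNKT17. Stat3 had 1 lower region of 6 and none higher. The AP-1, EGR and NR4A list had 4 of 105 regions higher (3.81%) and 2 lower (1.90%). Cytotoxicity and NK receptor genes had 3 of 53 higher (5.66%) and none lower, beside 5.01% and 3.80% over all regions. Without the first iNKT17 library the cytotoxicity list had 7 higher and 4 lower.

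Beside 5.01% higher and 3.80% lower over all regions, housekeeping genes had none of 44 regions higher and 2 lower (4.55%), and T cell markers had 3 of 73 higher (4.11%) and 10 lower (13.7%), with lower ones at Cd5, Cd2 and Cd247 among others. The T cell list had 3 lower without the second iNKT2 library and 4 without the second iNKT17 library. Of the markers of other cell types, 1 of 16 B cell marker regions was higher and 1 lower, both at Ebf1, 1 of 22 epithelial and stromal regions was higher, at Epcam, and none of the 11 myeloid and none of the 11 thymocyte regions was called by edgeR. At an unadjusted p under 0.05 there were 0 myeloid and 2 thymocyte regions, and DESeq2 called 0 and 1. With a replicate block, edgeR called 0 and 3. No region was given to the B cell genes Ms4a1, Cd79a and Cd79b or to the thymocyte genes Rag1, Rag2, Ptcra, Cd8a and Cd8b1. The sums of RNA that follow are scaled to library totals without TMM factors. In RNA, the 8 B cell markers summed to 5.84 and 0.0373 CPM in iNKT17 and 0 in both iNKT2 libraries, with 6 of the 8 at 0 in all 6 libraries. The 8 myeloid markers summed to 0 and 0.0373 CPM in iNKT17, against 13.9 and 0 in iNKT2, and 7 of the 8 were at 0 throughout. The 8 thymocyte markers summed to 7.59 and 0 CPM in iNKT17, against 42.3 and 32.8 in iNKT2, with 4 of the 8 at 0 throughout. Themis, which is also expressed in mature T cells, had 1 and 0 counts in iNKT17, against 1224 and 527 in iNKT2. It was the only thymocyte marker with counts in the first iNKT2 library. The second iNKT2 library also had 222 counts of Cd8a, 85 of Cd8b1 and 55 of Rag1. The first iNKT17 library had 233 counts of Cd8b1. The 8 epithelial and stromal markers summed to 91.9 and 62.1 CPM in iNKT17, against 155 and 131 in iNKT2, with 5 at 0 throughout. Pecam1 carried most of this sum, with 1822 and 882 counts in iNKT17, against 4477 and 3547 in iNKT2. Epcam had 552 and 784 counts in iNKT17, against 0 in both iNKT2 libraries. T cell markers summed to 5390 and 4580 CPM in iNKT17, against 5440 and 5490 in iNKT2. Whether RNA of the listed thymocyte, epithelial and stromal markers, Pecam1 among them, came from such cells or from the sorted cells was not tested. The part of this RNA in the results was not tested either.

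The largest changes were not all at genes of known T cell function. Among the regions of moderate or high level (mean log2 CPM from 3 upwards), the largest increase was in the body of Disp1, which encodes a protein for the release of Hedgehog ligands (chr1:183104660-183105311). It had 25.2 and 41.9 CPM in iNKT17, against 1.14 and 0.482 in iNKT2 (log2 fold change 5.31 ± 0.51, edgeR adjusted p = 0.00123). Next came Iyd at 5.24, a thyroid iodide-recycling enzyme, then Slc7a14 at 4.86, Tmem132d at 4.80, Usp6nl at 4.79, Cdc42ep2 at 4.75, Il17f at 4.70, Synm at 4.64, Smyd2 at 4.63 and Ccl20 at 4.62, all log2 fold changes. Ccl20 encodes the ligand of CCR6, and its region 21421 bp from the start (chr1:83137632-83138742) had 29.1 and 43.0 CPM in iNKT17, against 1.90 and 0.964 in iNKT2. The calls at Usp6nl, Cdc42ep2 and Smyd2 were lost without the second iNKT17 library, and those at Usp6nl and Smyd2 also without the first. The Usp6nl call was lost as well without the first iNKT2 library, with DESeq2 size factors and with no width limit. RNA of Iyd, Slc7a14, Tmem132d, Synm, Cdc42ep2 and Ccl20 had 0 counts in every sublineage library.

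After Il12rb2, the largest decreases were at Ric1 (-4.02), Rptor (-3.99), which encodes the Raptor subunit of mTORC1, Rrp1 (-3.48), Mctp2 (-3.46), Pip4k2a (-3.31), Tbx21 (-3.23), Aen (-3.22), Ergic1 (-3.19) and Tnfrsf4 (-3.07), again log2 fold changes. The Ric1 region, between genes 35520 bp from the start (chr19:29486497-29487028), had 1.36 and 1.19 CPM in iNKT17, against 18.1 and 23.2 in iNKT2 (log2 fold change -4.02 ± 0.28, edgeR adjusted p = 0.000983). At the Rrp1 region (chr10:78402481-78403008) iNKT17 had 2.99 and 1.44 CPM, against 19.2 and 29.3 in iNKT2, while iNKT1 had 1.59 and 1.12. The iNKT2 libraries were thus the highest of the 6 at Ric1, Rrp1 and Tnfrsf4, whereas both iNKT1 libraries were above both iNKT2 libraries at Il12rb2, Rptor, Mctp2, Tbx21, Aen and Ergic1. In this group, only the Tbx21 region lost its call without 1 of the 4 libraries.

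Some genes changed over many regions. The following were named after their values were seen. Myo16, an unconventional myosin, had 9 of its 10 regions higher, and in a stretch of 79.2 kb (chr8:10462244-10541468) all 9 regions were higher, with log2 fold changes of 3.07 to 4.35. Its RNA had 0 counts in every library. Ifngr1, the interferon gamma receptor, and Rhobtb1 had 8 higher regions each, and Igf1r and Chst11 had 7 each. The strongest Ifngr1 region (chr10:19565813-19566552) had 14.9 and 24.2 CPM in iNKT17, against 0.975 and 0.964 in iNKT2 (log2 fold change 4.33 ± 0.36, edgeR adjusted p = 0.001). With 1 library left out, 4 to 9 Ifngr1 regions were higher, with 4 without the second iNKT17 library or either iNKT2 library. Igf1r had 2 and Chst11 3 higher regions without the second iNKT17 library, and 1 and 4 without the second iNKT2 library.

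In the other direction, Chn2, a Rac GTPase-activating protein, had 15 of 30 regions lower and none higher. Its strongest region (chr6:54127107-54127882, gene body) had 5.88 and 7.76 CPM in iNKT17, against 22.5 and 32.4 in iNKT2 (log2 fold change -2.0 ± 0.29, edgeR adjusted p = 0.00412). Chn2 had 4 lower regions without the second iNKT2 library and 8 without the second iNKT17 library. Inpp4b, a phosphoinositide phosphatase, had 9 lower and 2 higher of 35, with 5 lower without the second iNKT17 or the second iNKT2 library, and Ugcg, which makes glucosylceramide, had 8 lower of 20. A Ugcg region (chr4:59214504-59215203) had 3.31 and 2.49 CPM in iNKT17, against 20.9 and 27.3 in iNKT2 (log2 fold change -3.06 ± 0.27, edgeR adjusted p = 0.00103). Ugcg had 5 to 6 lower regions with 1 library left out. Tgfbr3, a TGF-beta co-receptor, had 9 lower of 21, but 0 without the second iNKT2 library and 1 without the second iNKT17 library.

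Motif letters were counted in RefSeq windows from 250 bases before to 50 after a start that lay under a tested region. There were 151 windows under regions higher in iNKT17, 138 under lower ones and 12167 under all tested. They came from 138, 126 and 10602 genes, so some genes were counted with more than 1 start. The nuclear receptor half-site TAGGTCA was in 12 of the higher (7.95%) and 1 of the lower windows (0.725%). It was in 1.72% of all tested windows and in 2.61% of all 32817 RefSeq windows. The T-box letters AGGTGTGA were in 0 of the higher windows, 8 of the lower (5.80%) and 0.764% of all tested. The RUNX letters TGTGGTT were in 5.96% of the higher, 12.3% of the lower and 3.76% of all tested windows. The SOX letters ACAATGG were in 4 of the higher (2.65%) and 9 of the lower windows (6.52%), beside 1.71% of all tested. The NF-kB motif was in 5 of the higher (3.31%) and 1 of the lower (0.725%), beside 0.411%. The windows also differed in base composition, with a CpG ratio of at least 0.6 in 41.7% of the higher, 36.2% of the lower and 77.8% of all tested windows, and its part in these shares was not tested. Several motifs marked in the printed promoters had like shares in both kinds of window. The AP-1 letters TGANTCA, with any base at N, were in 7.95% of the higher, 7.97% of the lower and 4.42% of all tested windows. For the MAF half-site these shares were 5.30%, 4.35% and 3.53%, and for the TCF/LEF letters 3.97%, 5.07% and 2.37%. The E-box CAGGTG was in 27.2% of the higher, 23.2% of the lower and 18% of all tested windows. A match is a description of letters and not a binding site.

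Among genes with enough RNA counts for a test, RNA of a gene tended to follow its regions. The RNA libraries varied widely, and of 12372 genes tested, 54 were higher (0.436%) and 34 lower (0.275%) in iNKT17 by edgeR, 0.711% in all. Leaving out 1 library raised the number called to between 157 without the first iNKT2 library and 831 without the first iNKT17 library. The counts by number of called regions hold only genes with enough RNA counts for a test. Myo16, with 9 higher regions and 0 RNA counts, is among those left out. Of 115 RNA-tested genes with 3 or more higher regions and none lower, 22 had RNA called higher and 0 called lower. The RNA log2 fold change was positive in 102 of the 115, with a median of 2.24, or 2.23 with genes at 0 in 1 sublineage set to a floor of 3 counts. Of 74 RNA-tested genes with 3 or more lower regions and none higher, 0 had RNA called higher and 4 called lower. Of the 74, 8 were positive, and the median was -1.13, or -1.09 with that floor. The 7849 RNA-tested genes with regions but no region called had a median of -0.07, and 46.9% were positive. The next counts take regions within 1 kb of any listed start, which may be that of another gene than the one given the region. A higher region of this kind was given to 128 genes, and 84 of them had enough RNA counts for a test. Of the 84, 75 had a positive RNA fold change, with a median of 3.58 with or without that floor. A lower region of this kind was given to 107 genes, and 66 of them had enough RNA counts for a test. Of the 66, 9 had a positive RNA fold change, with a median of -2.73 with or without that floor.

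**Figure D5:**
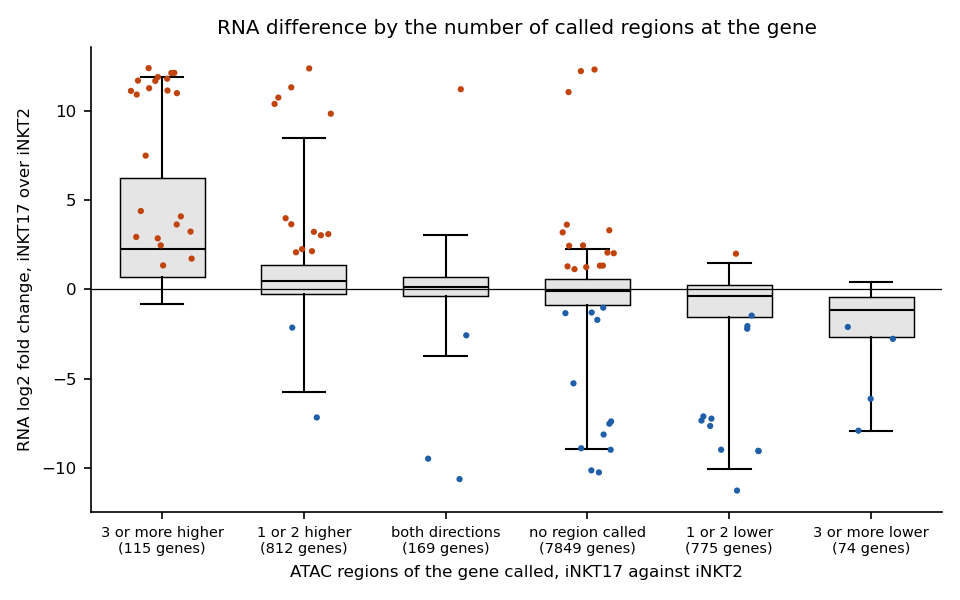
Genes with enough RNA counts for a test are grouped by how many of their regions were called. Boxes give the median and quartiles of the RNA log2 fold change, iNKT17 over iNKT2, with whiskers from the 5th to the 95th percentile. Coloured points are genes whose RNA was called higher (orange) or lower (blue). The median passes from 2.24 with 3 or more higher regions to -1.13 with 3 or more lower regions.

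Several genes showed both kinds of change. Il1r1 RNA was 1080 and 1150 CPM in iNKT17, against 0.372 and 0.290 in iNKT2 (log2 fold change 11.69 ± 0.46, edgeR adjusted p = 6.01e-06). Il23r RNA was 633 and 538 CPM in iNKT17, against 0.203 and 0.145 in iNKT2. Both genes had RNA in iNKT17 cells and almost none in iNKT2 cells. Blk RNA was 3020 and 1770 CPM in iNKT17, against 9.27 and 17.4 in iNKT2 (log2 fold change 7.49 ± 0.56, edgeR adjusted p = 0.00144). Cd4 RNA went the other way, at 0.0643 and 0.349 CPM in iNKT17, against 484 and 520 in iNKT2 (log2 fold change -11.27 ± 0.74, edgeR adjusted p = 0.000133), beside a log2 fold change of -1.07 at its only region. Ifng RNA was 0.129 and 0.310 CPM in iNKT17, against 4.74 and 25.9 in iNKT2 (log2 fold change -6.13 ± 0.96, edgeR adjusted p = 0.0394).

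For some other genes, 1 measure gave a call and the other did not. Il12rb2 held the strongest decrease among the named regions, but its RNA had 1 and 3 counts in iNKT17, against 1 and 2 in iNKT2, while iNKT1 had 5584 and 3957. Il17f had all 3 regions higher and 0 RNA counts in all libraries. Il17a RNA had 1238 and 390 counts in iNKT17, against 1 and 1 in iNKT2, the same direction as its regions. It was not called (log2 fold change 9.45 ± 4.36, edgeR adjusted p = 0.669). Cxcr6 RNA was higher in iNKT17, at 937 and 771 CPM, against 211 and 213 in iNKT2 (log2 fold change 2.01 ± 0.23, edgeR adjusted p = 0.0034), although no region was given to this chemokine receptor gene. Gata3, with 1 lower region, had RNA of 155 and 239 CPM in iNKT17, against 155 and 152 in iNKT2, which was not called. Maf RNA was 552 and 510 CPM in iNKT17, against 369 and 206 in iNKT2, and Sox13 RNA 578 and 568, against 607 and 591. At Maf and Sox13 neither RNA nor any region was called by edgeR without a replicate block.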

How the data were processed

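ATAC-seq was done on 2 libraries each of iNKT17, iNKT2 and iNKT1 cells, and RNA-seq on separate libraries of the same groups. The deposited raw counts per region and per gene are the authors' tables, with 26811373 to 33688697 RNA counts per library. Per the submitters' processing notes, the tools used across the series include Bowtie2, MACS2, SAMtools, bedtools 2.27.1, HOMER 4.9.1, kallisto, STAR 2.5.4 and DESeq2 1.22.2, on mm10 (GRCm38). Which tool made which table, any shift for Tn5 and any removal of duplicates are not given in the sources used here, and peaks of all libraries share 1 region set. Region coordinates are printed as the table gives them. No column was left unmatched (0).

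Counts were fitted with edgeR 4.0.16 (R 4.3.3; TMM scaling, filterByExpr, robust quasi-likelihood F test, 1 term per sublineage over 6 libraries, Benjamini-Hochberg adjustment, calls at adjusted p under 0.05), separately for regions up to 10000 bp and for genes. The script was tested on simulated data. SE is the log2 fold change divided by the square root of F. A region went to the gene body holding its midpoint in RefSeq (GRCm38.p6), otherwise to the gene with the nearest start within 100000 bp. Of 21896 protein-coding genes, 17491 have a listed start, and for the others both ends of the gene served for assignment, while regions near those ends and chromosome 18 stayed out of the position classes. So a region's gene is its neighbour, not a proven target.

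Named regions were the 10 largest changes in each direction (called, mean log2 CPM of at least 3, libraries not overlapping, 1 per gene, no predicted genes), the region with the smallest p at each key locus, and up to 3 per gene list. The members, lists and motifs were chosen with earlier results of these data known. Lists are described by counts and medians without a test. Alternatives were other scalings and filters, DESeq2 1.42.0, fewer libraries, a replicate block, other width limits and leaving out each library. Some results at single genes are not reported here.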

Additional observations from a re-analysis of the deposited data

How the results depend on the processing

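All 4798 called regions kept their direction in every alternative in which they were tested. The groups did not overlap in any of them, so leaving out 1 library could hardly have changed a direction. A replicate block in the fit gave 10482 regions called (5521 higher, 4961 lower), 457 of them at listed genes instead of 243. It called 7 of the 15 named regions not called otherwise, and 2 Maf regions, both higher. It also called 212 of the 1022 regions under 100 bp wide and 3 of the 11 thymocyte regions. The labels give a shared number and no pairing, and the deviations of same-numbered libraries correlated at 0.515, 0.437 and 0.601 over regions, a hint from the data only. The same block in the RNA fit gave 84 genes (54 higher, 30 lower). DESeq2 called 6780 regions, of which 3150 were lower. Leaving out 1 library gave 1687 to 4795 regions (995 to 2816 higher, 521 to 1979 lower) and 94 to 231 at listed genes, with the lowest totals without the second iNKT2 (1687) or second iNKT17 library (1691). A group left with 1 library was taken to vary like the others. Other scalings gave 3802 (library totals) to 5212 (loess offsets) regions, and 64 and 68 of the 70 named called regions were kept there. Without the second iNKT2 library 18 of the 70 lost their call and without the second iNKT17 library 17. The Itgam region, not called, changed sign without the second iNKT17 library (log2 fold change 0.10), and was called without the first (-1.98). The cause of these shifts was not tested.

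RNA calls depended more on the tool: DESeq2 called 1274 genes (516 higher, 758 lower), no low-count filter 339 (206 higher, 133 lower), and leaving out 1 library 157 to 831 (97 to 173 higher, 49 to 658 lower), with 831 without the first iNKT17 library. The common biological coefficient of variation was 1.30 for genes and 0.295 for regions. Motif shares in the central 200 bp of each region and in wider windows were not run, because no genome was used here, and promoter windows replaced them after the data were seen.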
